A study of Homo sapiens with 15 samples.

Results

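Collagens are the main structural proteins of the extracellular matrix, and each collagen is built from chains encoded by genes named COL, a type number, A and a chain number. Transcripts of these collagen chain genes were examined in U2OS cells, a human osteosarcoma line that carries wild-type p53. All genes of the expression table with a name of that form were taken, which gave 43 of 23368 genes, from 27 collagen types. The cells formed 6 groups. S-phase cells, harvested 4 h after release from a double thymidine block, gave 2 libraries with Nutlin and 3 with DMSO. Non-released cells, kept in the block, gave 2 libraries with Nutlin and 2 with DMSO, and asynchronous cells gave 3 with Nutlin and 3 with DMSO. Nutlin releases p53 from its ubiquitin ligase MDM2, and DMSO was the vehicle. Nutlin went on for the last 4 h of the block, stayed on after release, and in non-released cells the block continued. The block was 2 mM thymidine for 16 h, 8 h without it and another 16 h with it. The number given for the Nutlin dose is 10, and its unit prefix is lost in the labels. The time with Nutlin in asynchronous cells is not given in the sources. All groups come from 1 cell line in culture. Since nothing in the labels ties replicates to separate cultures, the p-values may reflect technical spread only.

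Collagen chains fold in threes into a triple helix inside the cell, after their prolines and lysines are hydroxylated, and are then secreted, trimmed and crosslinked. Fibrillar collagens (types I, II, III, V, XI, XXIV and XXVII) build cross-striated fibrils, and fibril-associated collagens (FACITs) coat them. Type IV builds the network of basement membranes, type VI beaded filaments and type VII the fibrils that anchor epithelium to the tissue beneath. Types XIII and XVII span the plasma membrane. The main collagen of bone is type I, a heterotrimer of COL1A1 and COL1A2 chains. The measurements here are of RNA and say nothing of secreted protein.

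The 6 type IV genes lie in 3 pairs, each pair transcribed head to head from neighbouring start sites. In RefSeq on GRCh38.p14, the starts of COL4A1 and COL4A2 leave 126 bases between them, those of COL4A4 and COL4A3 418, and those of COL4A6 and COL4A5 379 or 1415, depending on the COL4A6 start. Of the 43 genes, 31 had an entry in the promoter table used. The stretch between COL4A1 and COL4A2 is shown because these were the most abundant collagen transcripts, at chr13:110307158-110307283 on the plus strand. The 250 bases before the start are shown for COL4A4, at chr2:227164206-227164455, and for COL11A1, at chr1:103108523-103108772, the genes with the smallest adjusted p between culture states. Those before COL17A1, at chr10:104085881-104086130, are shown because it was called under Nutlin. These 3 are on the minus strand, and sequences are 5′ to 3′ on the strand named. Capitals mark matches on either strand to the CCAAT box (CCAAT), the GC box (GGGCGG), the TATA box (TATAAA) and the consensus of a p53 half-site.
COL4A1-COL4A2 interval: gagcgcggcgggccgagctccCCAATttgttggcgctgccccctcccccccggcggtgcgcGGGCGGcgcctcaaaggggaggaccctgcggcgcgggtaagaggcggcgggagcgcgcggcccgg
COL4A4: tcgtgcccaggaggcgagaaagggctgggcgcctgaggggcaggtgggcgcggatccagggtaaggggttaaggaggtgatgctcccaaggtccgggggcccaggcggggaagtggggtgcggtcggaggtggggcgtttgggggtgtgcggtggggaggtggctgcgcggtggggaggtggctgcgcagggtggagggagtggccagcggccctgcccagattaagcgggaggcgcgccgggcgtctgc
COL11A1: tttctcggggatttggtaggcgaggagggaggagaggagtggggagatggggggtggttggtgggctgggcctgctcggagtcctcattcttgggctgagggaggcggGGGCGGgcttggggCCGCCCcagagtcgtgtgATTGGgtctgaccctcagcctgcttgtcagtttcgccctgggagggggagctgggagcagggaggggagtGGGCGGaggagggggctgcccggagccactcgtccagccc
COL17A1: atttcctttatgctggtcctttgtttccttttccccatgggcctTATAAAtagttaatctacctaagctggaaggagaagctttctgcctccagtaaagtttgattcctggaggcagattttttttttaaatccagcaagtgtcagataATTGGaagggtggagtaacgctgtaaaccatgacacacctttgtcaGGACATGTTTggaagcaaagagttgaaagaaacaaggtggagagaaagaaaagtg

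The COL4A1-COL4A2 interval held 1 CCAAT box and 1 GC box, and its GC content was 80.2%. Windows of that length before all starts in the table (35116 windows) held a CCAAT box in 21.1% and a GC box in 34.6%. The COL11A1 window held 3 GC boxes and 1 CCAAT box, and the COL4A4 window held no match. The COL17A1 window held 1 TATA box, 1 CCAAT box and 1 match to the p53 half-site consensus, which do not overlap. In windows of 250 bases these occur before 10.7% (TATA box), 32% (CCAAT box), 42.6% (GC box) and 5.57% (p53 half-site) of all starts. A match to letters is a description and not a binding site.

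Read numbers, recovered from the deposited values, came to 6.05 to 23.38 M reads per library, lowest in DMSO S-phase replicate 2. MDM2 and CDKN1A, direct p53 targets, were higher in every Nutlin library than in every DMSO library of the same state with 1 exception. In the library labelled DMSO asynchronous replicate 3, CDKN1A stood at 14.10 on the deposited log2 scale, against 13.51 to 13.59 in Nutlin asynchronous cells, and 12 of 14 epithelial markers had their highest level of all libraries there. The summed epithelial markers came to 41681 normalised reads in that library and to 12749 to 17753 in the other 14. In DMSO S-phase replicate 2, 3 of 13 bone and mesenchymal markers, FN1 among them, and 2 of 4 cartilage markers, SOX9 among them, were at their highest. Another of these bone markers was SP7, at only 2.65 normalised reads. Also highest there were 3 of 5 endothelial markers, at 39.7 normalised reads or fewer, and 2 of 14 epithelial markers, but 0 of 4 blood markers. The other markers of these lists were not highest there. In that library 0.440% of reads fell on collagen chain genes, against 0.233% to 0.349% elsewhere. Among bone and mesenchymal markers, VIM (median 34910 normalised reads) and SPARC (14022) were abundant, RUNX2 (176) and ALPL (142) were present, SP7 and IBSP were at 0 in 13 and 12 libraries, BGLAP in 9 and TWIST1 in all 15. The part of these differences between libraries in the results below was not tested. Results without both libraries, called atypical here, are given for many of the calls that depend on them, but not for all. The share of all genes called without them was not computed. Since collagen level is itself what is examined, leaving out DMSO S-phase replicate 2 is no independent check of collagen genes.

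Collagen transcripts in these cells were mainly those of types IV, VI, XII and I. Levels were compared between genes as normalised reads per kb of the longest protein-coding transcript. COL4A2 averaged 1718 and COL4A1 1223 normalised reads per kb over the 15 libraries, which made up 24.6% and 17.5% of the collagen total. COL12A1, a FACIT, followed with 664, and the type VI genes COL6A2, COL6A3 and COL6A1 with 654, 609 and 363. COL1A1 averaged 472 and ranged from 259.6 to 1476. The first 5 of these genes held 69.8% of the summed collagen level per kb. COL16A1, another FACIT, averaged 286, COL5A1 162 and COL11A1 135. Below them stood COL13A1 (126), COL5A2 (74.2), COL27A1 (72.1), COL9A2 (64.3), COL8A1 (55.1), COL4A5 (51.5), COL3A1 (47.2), COL18A1 (36.8) and COL7A1 (34.7). The remaining tested genes lay between 1.98 (COL15A1) and 33.6 (COL22A1) normalised reads per kb.

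**Figure D1:**
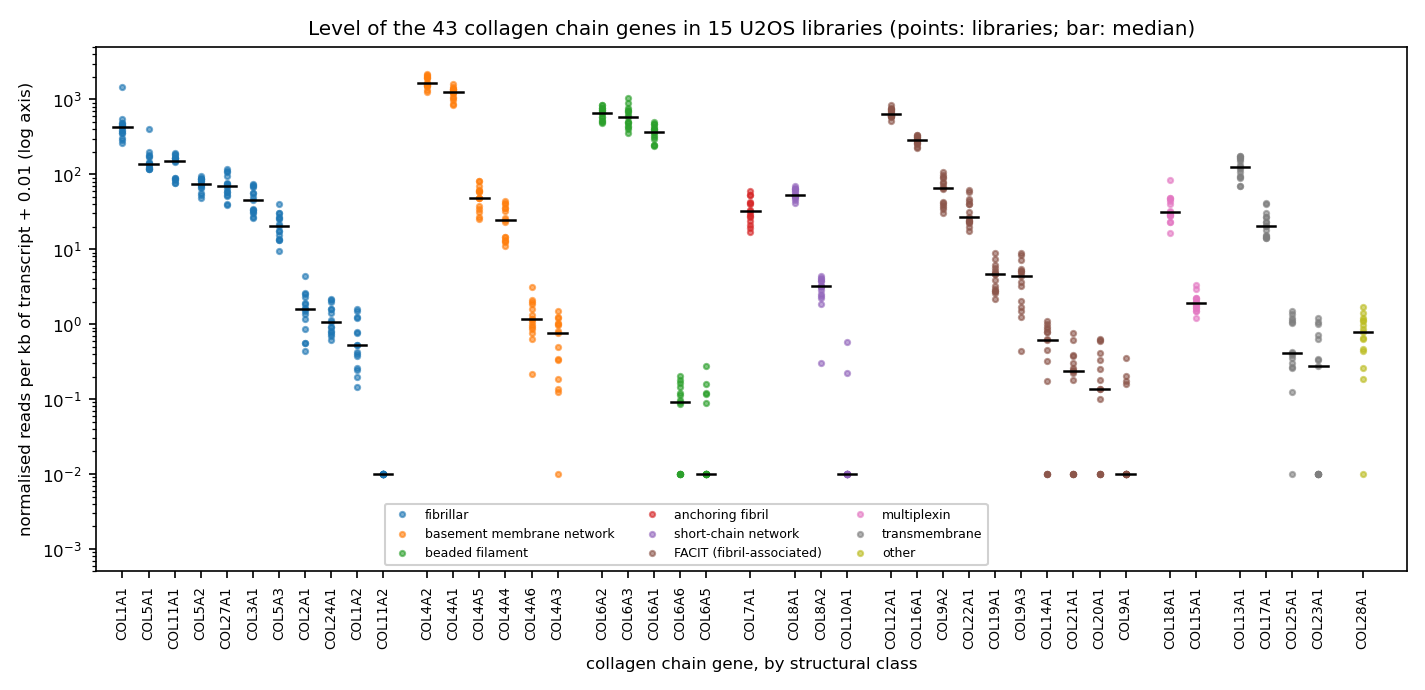
Level of each of the 43 collagen chain genes as normalised reads per kb of transcript plus 0.01, on a log axis, grouped and coloured by structural class. Each point is 1 of 15 libraries and each bar the median, and points at 0.01 are libraries with 0 reads, as for COL11A2 throughout.

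Many collagen genes were near the lowest value of the table, 4.859, which is that of a gene with 0 reads. Of the 43 genes, 27 had at least 2 libraries 1 unit or more above that value and were tested, and 16 did not. In 13 genes no library reached 1 unit above it, and 12 had 0 reads in at least 1 library. COL11A2, the second chain of type XI, had 0 reads in all 15, which allows up to 1.92 to 7.94 normalised reads per library at 3 reads, for counting error only. The share of collagen genes that passed, 62.8%, was near that of all genes of the table, 61.2%. By class, all of the anchoring fibril and multiplexin genes did (1 of 1 and 2 of 2), as did 7 of 11 fibrillar, 4 of 6 basement membrane, 3 of 5 beaded filament, 2 of 3 short-chain, 6 of 10 FACIT and 2 of 4 transmembrane genes. COL28A1, the only gene outside these classes, did not pass. The genes just inside the limit were COL15A1, COL8A2 and COL9A3, whose second-highest library stood at 5.91, 6.01 and 6.05. Those just outside were COL4A6, COL24A1 and COL2A1, at 5.85, 5.84 and 5.81.

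Partner chains were often far apart in level. COL1A2 had 1 to 11 reads per library, and the ratio of COL1A1 to COL1A2 per kb had a median of 844, between 219.7 and 2930, so the partner of the abundant COL1A1 transcript was almost not detected. Among the type IV pairs, COL4A1 and COL4A2 were both abundant, at a ratio per kb between 0.614 and 0.826. In the pair that also serves the glomerular network of the kidney, COL4A4 had 111.1 to 440.5 normalised reads and COL4A3 0 to 12.2. COL4A5 exceeded COL4A6 by a ratio with a median of 38.5, between 19.7 and 183. The 3 type VI genes stayed within a narrower range, with COL6A1 to COL6A2 between 0.454 and 0.749 per kb. COL5A1 to COL5A2, the chains of type V, which sets fibril diameter, had a median ratio of 2.04. COL8A1 exceeded COL8A2 by a median of 17.4, and COL9A2 exceeded COL9A3 by 18.9. Ratios to the low partners carry the counting error of a few reads.

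The ratio of COL6A3 to COL6A1 was highest in S-phase libraries, while that of COL4A1 to COL4A2 overlapped between states. COL6A3 to COL6A1 per kb was 2.23 and 2.89 in Nutlin S-phase cells and 1.96 to 2.12 in DMSO S-phase cells. It was 1.59 and 1.81 in Nutlin non-released cells and 1.27 and 1.52 in DMSO non-released cells, and in asynchronous cells 1.32 to 1.60 with Nutlin and at most 1.27 with DMSO. All 5 S-phase libraries thus lay above the other 10. COL4A1 to COL4A2 was 0.819 and 0.826 in Nutlin S-phase cells, and 0.670, 0.824 and 0.825 over the DMSO S-phase libraries, the low value in replicate 2. In the non-released libraries it lay between 0.641 and 0.674, and in asynchronous cells between 0.614 and 0.778 with Nutlin and between 0.637 and 0.765 with DMSO. These ratios are a description, and no test was made of them.

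The Nutlin comparisons ask how collagen transcripts stood after p53 was released from MDM2. COL17A1, which encodes the transmembrane collagen of hemidesmosomes, rose under Nutlin in S-phase and in asynchronous cells and was the only collagen gene called there. On the deposited log2 scale it stood at 8.13 and 8.19 in Nutlin S-phase cells, against 7.52, 7.28 and 7.39 in DMSO S-phase cells. In asynchronous cells it stood at 7.69, 7.40 and 7.68 with Nutlin, against 7.04, 7.08 and 7.14 with DMSO. Every Nutlin library lay above every DMSO library of its state. The difference was 0.76 ± 0.13 in S-phase (SE, limma, adjusted p = 0.00468, n = 2 and 3) and 0.50 ± 0.11 in asynchronous cells (adjusted p = 0.033, n = 3 and 3). In reads, COL17A1 averaged 40.6 normalised reads per kb in Nutlin S-phase cells and 20.4 in DMSO S-phase cells. In bulk RNA, more cells expressing a gene and more RNA per cell cannot be told apart.

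Non-released cells had COL17A1 at 7.52 and 7.83 with Nutlin, against 7.10 and 7.05 with DMSO. These groups did not overlap either, and the difference of 0.60 ± 0.14 missed the threshold (adjusted p = 0.0656 by limma). It passed without both atypical libraries (adjusted p = 0.0186), and by voom on recovered reads (adjusted p = 0.0252). The Nutlin response of COL17A1 was 0.26 ± 0.17 larger in S-phase than in asynchronous cells (limma adjusted p = 0.836), and this difference was not called. In asynchronous cells the call was lost on leaving out Nutlin replicate 1 or 3 or DMSO replicate 1 or 2, and its limma adjusted p ranged from 0.0155 to 0.184 over the alternatives.

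Across the family, 1 of 27 tested genes was called in S-phase cells, where 2.0% of all 14298 genes were called and 1.84% in that direction. In non-released cells 0 collagen genes were called by limma, against 0.916% of all genes (0.874% higher and 0.042% lower). In asynchronous cells 1 was called (3.7% of those tested), against 2.45% of all genes and 1.91% in that direction. At an unadjusted p under 0.05 the counts in S-phase, non-released and asynchronous cells were 2, 3 and 7 of 27, against 12.6%, 6.67% and 12.1% of all genes, and voom called 1 gene, COL17A1, in each state. In asynchronous cells 22 of 27 genes had a difference above 0, with a median of 0.15, against a median of -0.02 over all tested genes. In S-phase and non-released cells 13 and 19 of 27 were above 0, with medians of -0.03 and 0.06. With 27 genes 1 call is already 3.7%, so 0 or 1 call cannot set these genes apart from all genes. At an unadjusted p under 0.05, their share was above that of all genes in asynchronous and non-released cells and below it in S-phase cells.

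COL7A1, the chain of anchoring fibrils, had no call, but its Nutlin libraries lay above its DMSO libraries in all 3 states. It stood at 9.11 and 9.25 with Nutlin in S-phase cells, against 8.81, 8.49 and 8.10 with DMSO, and at 9.08 and 8.80 in non-released cells, against 7.95 and 8.27. Asynchronous cells had 8.73, 8.51 and 8.37 with Nutlin, against 7.87, 8.26 and 7.72 with DMSO. The differences were 0.72 ± 0.20, 0.83 ± 0.22 and 0.59 ± 0.18 in S-phase, non-released and asynchronous cells (limma adjusted p = 0.109, 0.133 and 0.138). In non-released cells it passed without both atypical libraries (adjusted p = 0.0386). Asynchronous Nutlin libraries lay above all DMSO libraries in 9 of 27 genes and below them in 0, against 8.49% and 9.64% of all genes. These were COL17A1, COL7A1, COL13A1, COL27A1, COL6A3, COL4A1, COL6A1, COL6A2 and COL9A2. In non-released cells 7 lay above and 2 below (20% and 25.7% of all genes), and in S-phase cells 2 above and 1 below (13.8% and 12%). In asynchronous cells COL13A1, COL27A1 and COL6A3 had differences of 0.43 ± 0.12, 0.57 ± 0.20 and 0.53 ± 0.17 (limma adjusted p = 0.0957, 0.198 and 0.164). Without both atypical libraries, COL27A1 and COL6A3 passed there (adjusted p = 0.013 and 0.019), and 3 genes in all were called.

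**Figure D2:**
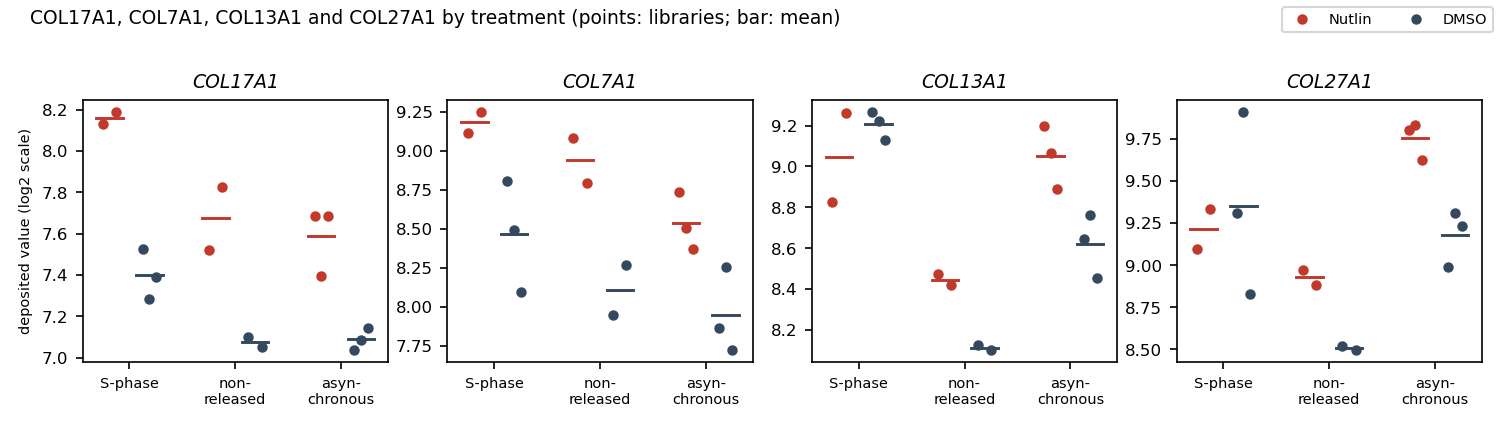
Deposited log2-scale values of COL17A1, COL7A1, COL13A1 and COL27A1 in S-phase, non-released and asynchronous cells, with Nutlin to the left of DMSO. Points are libraries and bars are group means. For COL17A1 and COL7A1 all Nutlin points lie above the DMSO points of the same state, and for COL13A1 and COL27A1 this holds in non-released and asynchronous cells only.

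No collagen gene was called for a difference in its Nutlin response between states, and neither was any of the 14298 genes. By limma 0.0% of all genes were called in each of the 3 comparisons, and by voom 0 collagen genes. Groups held only 2 or 3 libraries, so a lack of calls does not show equal responses. At an unadjusted p under 0.05 there were 3 collagen genes for S-phase minus asynchronous, 0 for non-released minus asynchronous and 1 for S-phase minus non-released, against 5.5%, 1.08% and 2.25% of all genes. The largest of these was COL27A1, whose response was -0.71 ± 0.29 in S-phase minus asynchronous cells, followed by COL13A1 and COL19A1 at -0.59 ± 0.18 and -0.59 ± 0.20 (limma adjusted p = 0.836 for each). COL13A1 also had -0.50 ± 0.20 in S-phase minus non-released cells (adjusted p = 0.999).

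Comparisons between culture states gave more collagen calls than those between Nutlin and DMSO, except for S-phase against non-released cells under Nutlin, with 0. Of the 27 tested genes, 18 were called in at least 1 of the 12 comparisons, against 51.3% of all genes. Comparisons with asynchronous cells share the asynchronous libraries, so their values stand side by side and are not independent of each other. Under Nutlin, S-phase cells had 8 genes higher and 1 lower than asynchronous cells, 33.3% of those tested, against 24.0% of all genes (13.4% higher and 10.6% lower). In DMSO the same comparison gave 9 higher and 0 lower, 33.3%, against 27.7% of all genes (14.1% and 13.6%). Non-released against asynchronous cells gave 6 higher and 8 lower under Nutlin, 51.9%, against 34.5% of all genes (17.3% and 17.2%). In DMSO it gave 6 higher and 4 lower, 37%, against 33.9% (16.9% and 17.0%). S-phase against non-released cells under Nutlin gave 0 by limma, against 2.43% of all genes (1.6% and 0.832%), with 6 at an unadjusted p under 0.05 (15.8% of all genes) and 0 by voom. In DMSO it gave 5 higher and 0 lower, 18.5%, against 6.99% (4.11% and 2.89%). Median differences over the 27 genes in S-phase against asynchronous cells were 0.24 under Nutlin and 0.31 in DMSO, against 0.00 and -0.01 over all genes.

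Several of these calls and counts rest on single libraries. Of the 49 called differences of collagen genes, 19 were kept on leaving out any 1 library of the groups compared or of the atypical pair, and 30 were lost on leaving out at least 1 of them. For 11 calls at least 4 such libraries each ended the call: COL17A1 for Nutlin in asynchronous cells; COL5A2 and COL7A1 (S-phase) and COL6A3 (non-released) against asynchronous cells under Nutlin; and in DMSO COL7A1, COL8A1 and COL22A1 (S-phase) and COL4A1, COL5A2 and COL27A1 (non-released) against asynchronous cells, and COL19A1 in S-phase against non-released cells. In non-released against asynchronous cells, leaving out Nutlin replicate 1 or 2 of the non-released cells gave 6 or 9 genes under Nutlin, and leaving out DMSO replicate 1 or 2 gave 5 in DMSO. In S-phase against asynchronous cells under Nutlin, 5 remained in number without either Nutlin S-phase library and 14 were called without both atypical libraries. S-phase against non-released cells in DMSO gave 1 or 2 genes without DMSO non-released replicate 1 or 2, 2 without DMSO S-phase replicate 1, and 8 (5 higher and 3 lower) without both atypical libraries. Under Nutlin that comparison gave 6 genes without both. No share of all genes was computed without both, so these counts cannot be set against a background.

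**Figure D3:**
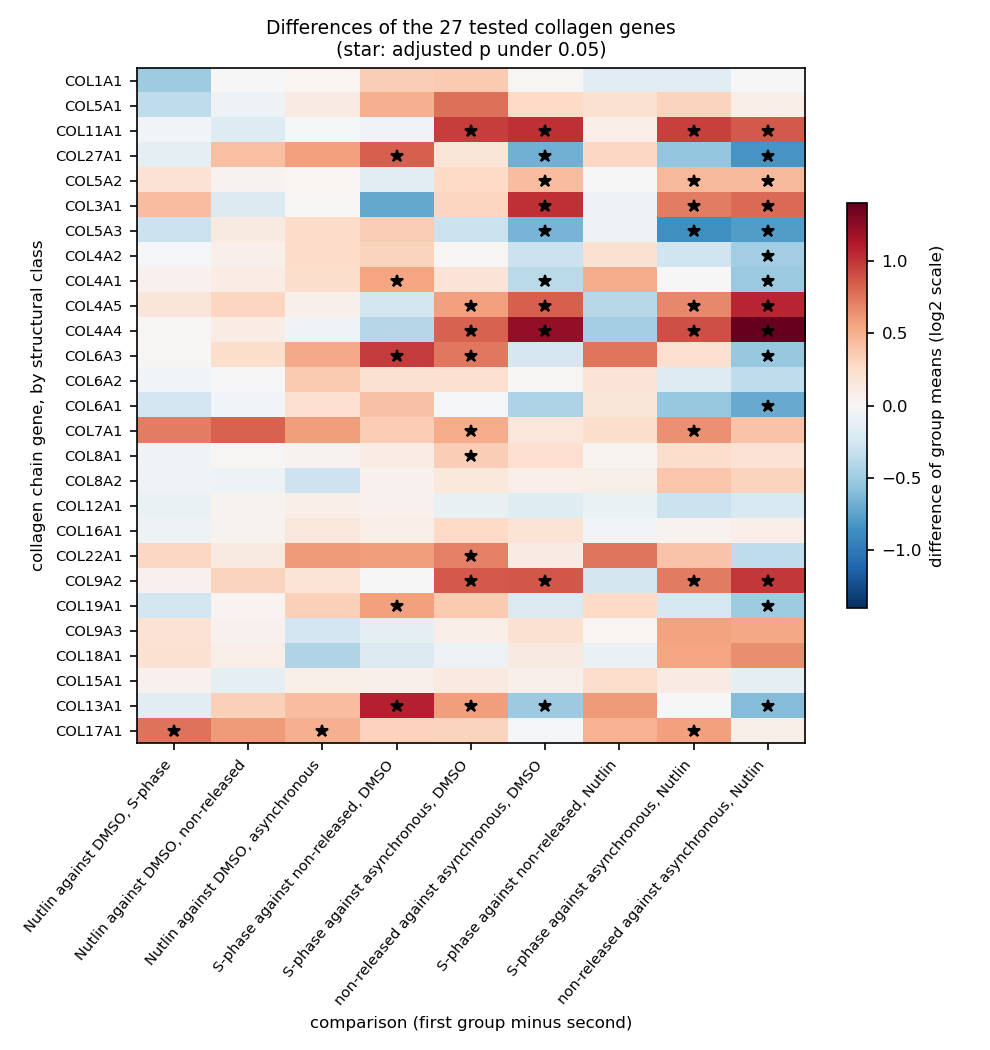
Difference of group means on the deposited log2 scale for the 27 tested collagen genes (rows, by structural class) in 9 comparisons (columns, first group minus second), red for higher and blue for lower in the first group. Stars mark an adjusted p under 0.05, which COL11A1, COL4A4, COL4A5, COL9A2 and COL13A1 had in 4 comparisons each.

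Among fibrillar collagens, COL11A1, a chain of the fibrils of cartilage, was higher in S-phase and in non-released cells than in asynchronous cells with either treatment. With Nutlin it stood at 10.18 and 10.47 in S-phase cells, 10.16 and 10.30 in non-released cells, and 9.39, 9.28 and 9.46 in asynchronous cells. With DMSO it stood at 10.31, 10.45 and 10.32 in S-phase cells, 10.30 and 10.52 in non-released cells, and 9.47, 9.44 and 9.27 in asynchronous cells. Every S-phase and non-released library lay above every asynchronous library. Against asynchronous cells the differences were 0.95 ± 0.11 in S-phase (limma adjusted p = 0.000104) and 0.86 ± 0.11 in non-released cells (9.94e-05) with Nutlin, and 0.97 ± 0.10 (4.25e-05) and 1.02 ± 0.11 (2.97e-05) with DMSO. In normalised reads per kb this was 172 in DMSO S-phase and 178 in DMSO non-released cells, against 84.1 in DMSO asynchronous cells.

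COL3A1, the fibrillar collagen of vessel walls and other distensible tissue, rose in non-released against asynchronous cells. It stood at 8.54 and 8.76 with Nutlin in non-released cells, against 7.83, 7.81 and 7.91 in asynchronous cells, and with DMSO at 8.85 and 8.86, against 7.91, 7.93 and 7.66. The differences were 0.80 ± 0.21 (limma adjusted p = 0.0089) and 1.02 ± 0.21 (0.00202). In S-phase cells COL3A1 was spread widely, at 8.36 and 8.78 with Nutlin and 8.26, 8.52 and 7.63 with DMSO. It was called there against asynchronous cells under Nutlin only (0.72 ± 0.21, limma adjusted p = 0.022). Against non-released cells in DMSO the S-phase difference was -0.72 ± 0.21 (limma adjusted p = 0.0522), and -0.91 without both atypical libraries (0.00322).

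COL5A2 and COL5A3, which both encode chains of type V, moved in opposite directions. COL5A2 rose in non-released against asynchronous cells, by 0.46 ± 0.16 under Nutlin and 0.44 ± 0.16 in DMSO (limma adjusted p = 0.0364 and 0.0453), and in S-phase against asynchronous cells under Nutlin by 0.46 ± 0.16 (0.0476). The DMSO call was lost without both atypical libraries (0.35, adjusted p = 0.0639). COL5A3 stood at 7.07 and 7.33 in Nutlin non-released cells, against 7.77, 8.25 and 7.93 in Nutlin asynchronous cells, and at 7.09 and 7.07 in DMSO non-released cells, against 7.55, 7.92 and 7.72 in DMSO asynchronous cells. It fell by 0.78 and 0.65 there (SE 0.21 each, limma adjusted p = 0.0126 and 0.0321), and by 0.86 in S-phase against asynchronous cells under Nutlin (SE 0.21, 0.0111). COL27A1, a fibrillar collagen of cartilage, was also lower in non-released than in asynchronous cells, by -0.82 ± 0.22 under Nutlin and -0.67 ± 0.22 in DMSO (limma adjusted p = 0.0106 and 0.031). In DMSO it was higher in S-phase than in non-released cells (0.84 ± 0.22, adjusted p = 0.0344, and 0.56 without both atypical libraries, 0.0207).

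Type IV genes divided by pair. COL4A4 rose most of all collagen genes in non-released against asynchronous cells. With Nutlin it stood at 8.23 and 8.57 in S-phase cells, 8.83 and 8.96 in non-released cells, and 7.65, 7.36 and 7.50 in asynchronous cells. With DMSO it stood at 8.31, 8.67 and 8.16 in S-phase cells, 8.70 and 8.87 in non-released cells, and 7.64, 7.55 and 7.48 in asynchronous cells. All asynchronous libraries lay below all others. Against asynchronous cells the difference was 1.39 ± 0.15 in non-released and 0.90 ± 0.15 in S-phase cells under Nutlin (limma adjusted p = 3.24e-05 and 0.00123), and 1.23 ± 0.15 and 0.83 ± 0.14 in DMSO (7.3e-05 and 0.000957). COL4A3, its head-to-head partner, did not pass the filter.

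COL4A5, the X-linked chain that joins COL4A3 and COL4A4 in kidney basement membrane, showed the same directions. It stood at 8.77 and 8.82 in S-phase, 9.18 and 9.20 in non-released, and 8.00, 8.23 and 8.14 in asynchronous cells with Nutlin. With DMSO it stood at 8.52, 8.81 and 8.54, then 8.78 and 8.99, and in asynchronous cells 7.85, 7.78 and 8.51, the last in the library with high epithelial markers. The differences from asynchronous cells were 1.07 ± 0.18 and 0.67 ± 0.18 under Nutlin in non-released and S-phase cells (limma adjusted p = 0.000609 and 0.0151), and 0.84 ± 0.18 and 0.58 ± 0.16 in DMSO (0.00303 and 0.017). COL4A1 and COL4A2 fell in non-released against asynchronous cells under Nutlin, by 0.52 ± 0.14 and 0.49 ± 0.16 (limma adjusted p = 0.00956 and 0.0292). In DMSO, COL4A1 fell by 0.37 ± 0.14 (0.0463) and COL4A2 had -0.30 ± 0.16 (0.164). COL4A1 was higher in S-phase than in non-released cells in DMSO, at 13.16, 13.18 and 13.02 against 12.45 and 12.68 (0.55 ± 0.14, limma adjusted p = 0.0258). Without both atypical libraries, 1 of 4 tested type IV genes was called higher and 2 lower in S-phase than in non-released cells, with either treatment.

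**Figure D4:**
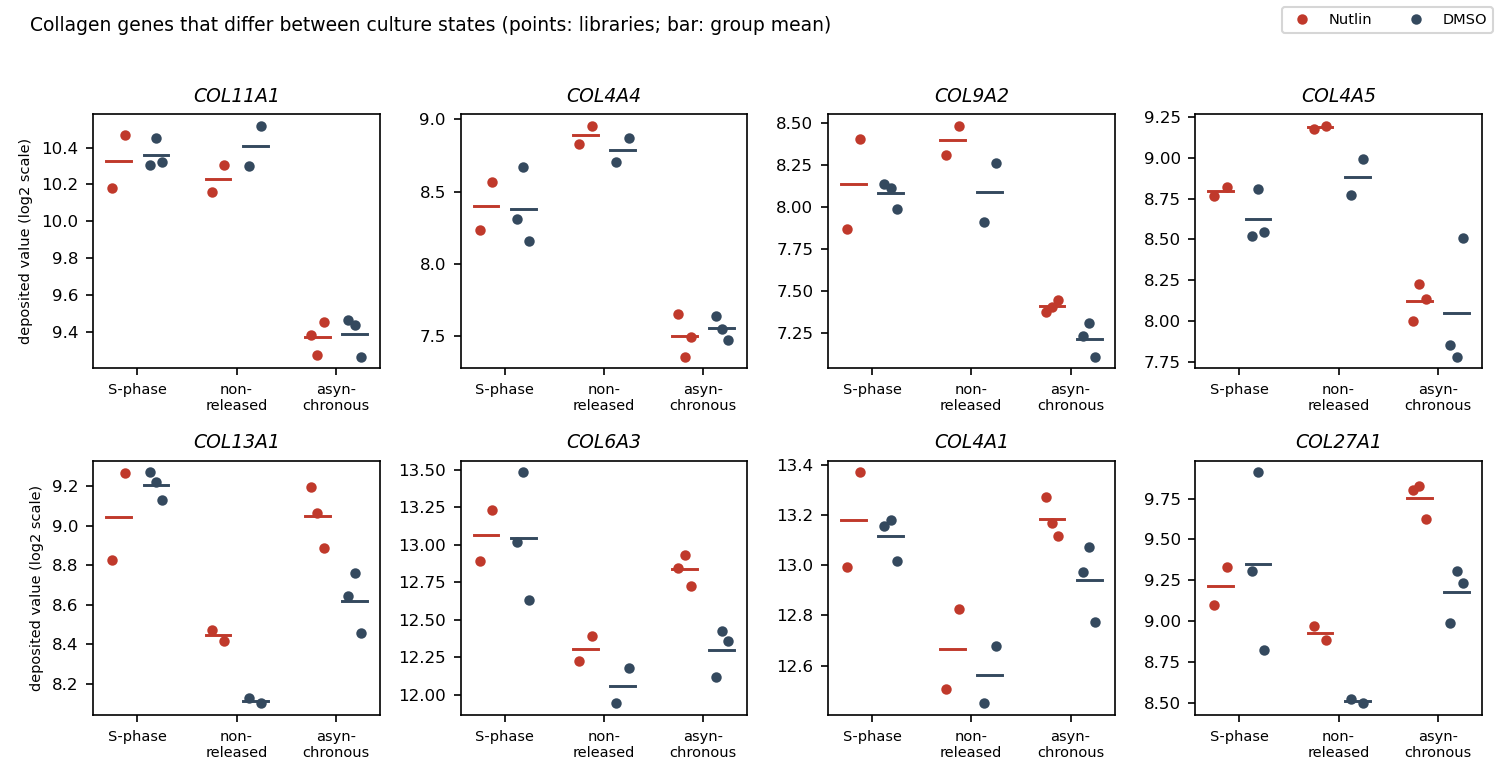
Deposited log2-scale values of 8 collagen genes called between culture states, in S-phase, non-released and asynchronous cells, with Nutlin to the left of DMSO. Points are libraries and bars are group means. In the upper row (COL11A1, COL4A4, COL9A2, COL4A5) asynchronous cells have the lowest group means, and in the lower row (COL13A1, COL6A3, COL4A1, COL27A1) non-released cells do.

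COL6A3, the long chain of type VI, was higher in S-phase than in both other states in DMSO. Under Nutlin it stood at 12.89 and 13.23 in S-phase, 12.22 and 12.39 in non-released, and 12.85, 12.93 and 12.73 in asynchronous cells. In DMSO it stood at 13.02, 13.48 and 12.63 in S-phase cells, against 11.94 and 12.18 in non-released and 12.12, 12.42 and 12.36 in asynchronous cells. The S-phase difference in DMSO was 0.98 ± 0.19 against non-released and 0.74 ± 0.17 against asynchronous cells (limma adjusted p = 0.00773 and 0.00713), and 0.76 and 0.55 without both atypical libraries (0.00322 and 0.0105). Under Nutlin, COL6A3 fell in non-released against asynchronous cells by 0.53 ± 0.19 (limma adjusted p = 0.0486), and so did COL6A1, at 10.08 and 10.43 against 10.86, 11.00 and 11.02 (by 0.70 ± 0.22, 0.0222). COL6A2 was called in no comparison with all libraries and ranged from 10.75 to 11.53. Under Nutlin and without both atypical libraries, 1 of 3 tested type VI genes was called higher in S-phase than in non-released cells. In S-phase against asynchronous cells 1 was then called lower.

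Both tested transmembrane collagens were called. COL13A1, which acts at the neuromuscular junction, was lowest in non-released cells. With Nutlin it stood at 8.82 and 9.26 in S-phase, 8.47 and 8.42 in non-released, and 9.20, 9.07 and 8.89 in asynchronous cells. With DMSO it stood at 9.27, 9.22 and 9.13 in S-phase, 8.13 and 8.10 in non-released, and 8.65, 8.76 and 8.46 in asynchronous cells, and these 3 groups did not overlap. In DMSO, S-phase cells exceeded non-released cells by 1.09 ± 0.14 and asynchronous cells by 0.59 ± 0.12 (limma adjusted p = 0.000306 and 0.0037), and non-released cells were lower than asynchronous cells by -0.51 ± 0.14 (0.011). Only the fall in non-released against asynchronous cells was called under Nutlin (-0.61 ± 0.14, limma adjusted p = 0.00399), and S-phase against non-released cells had 0.60 ± 0.15 (0.0514). COL17A1 rose in S-phase against asynchronous cells under Nutlin by 0.57 ± 0.13 (limma adjusted p = 0.00587). Without both atypical libraries, COL13A1 and COL17A1 were both called higher in S-phase than in non-released cells under Nutlin. Both were then also called higher in S-phase than in asynchronous cells in DMSO.

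Among FACITs, COL9A2, which coats the fibrils of cartilage, followed the pattern of COL11A1. It stood with Nutlin at 7.87 and 8.41 in S-phase, 8.31 and 8.48 in non-released, and 7.37, 7.41 and 7.45 in asynchronous cells. With DMSO it stood at 8.14, 8.12 and 7.99, then 7.91 and 8.26, and in asynchronous cells 7.24, 7.31 and 7.11. The asynchronous libraries were the lowest with either treatment. Against asynchronous cells the differences were 0.73 ± 0.15 in S-phase and 0.99 ± 0.15 in non-released cells under Nutlin (limma adjusted p = 0.00383 and 0.000324), and 0.86 ± 0.13 and 0.87 ± 0.15 in DMSO (0.000685 and 0.000767). Of the cartilage markers, MATN3 and ACAN were present at medians of 187 and 149.6 normalised reads, SOX9 at 716, and COMP was at 0 in 9 libraries.

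COL19A1, a sparse FACIT, was higher in S-phase than in non-released cells in DMSO, at 6.56, 6.36 and 6.44 against 5.95 and 5.82 (0.57 ± 0.15, limma adjusted p = 0.0321). It was lower in non-released than in asynchronous cells under Nutlin, at 5.91 and 5.94 against 6.72, 6.31 and 6.24 (-0.50 ± 0.15, 0.0176). At such low values the deposited scale compresses differences, and voom on recovered reads gave 1.41 and -1.21. COL22A1, a FACIT of tissue junctions, had S-phase values of 8.28, 8.82 and 7.69 in DMSO, against 7.81, 7.48 and 7.37 in asynchronous cells. Its call of 0.71 ± 0.25 (limma adjusted p = 0.0498) was lost without both atypical libraries (0.34, 0.286). COL12A1, the most abundant FACIT, ranged only from 12.59 to 13.28 and was called in no comparison, and neither was COL16A1, which ranged from 10.38 to 10.97.

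COL7A1 was higher in S-phase than in asynchronous cells, by 0.64 ± 0.20 under Nutlin and 0.52 ± 0.18 in DMSO (limma adjusted p = 0.0346 and 0.0491). The DMSO groups overlapped, and that call was lost without both atypical libraries (0.39, 0.16). COL8A1, a short-chain collagen of vessel walls and cornea, stood at 8.76, 8.44 and 8.84 in DMSO S-phase cells, against 8.37, 8.45 and 8.19 in DMSO asynchronous cells. The groups overlapped, and the difference was 0.34 ± 0.12 (limma adjusted p = 0.0469). The COL8A1 call was lost in 9 of 13 alternatives, 5 of them the removal of 1 of the 6 libraries compared (DMSO S-phase replicate 2 excepted), and its adjusted p ranged from 0.00889 to 0.179.

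In 3 abundant or moderate genes 1 library set the spread. COL1A1 stood at 11.37, 13.29 and 10.82 in DMSO S-phase cells, and its other 12 libraries lay between 10.97 and 11.87. In normalised reads, DMSO S-phase replicate 2 had 9927 and no other library more than 3697. COL5A1 was also highest there, at 11.77, against 10.03 to 10.78 in the other 14 libraries. That library had the lowest depth, and it had the highest value of 9 of the 27 tested collagen genes. In S-phase against asynchronous cells in DMSO, COL1A1 had 0.37 ± 0.45 and COL5A1 0.78 ± 0.29 (limma adjusted p = 0.582 and 0.0634), and without both atypical libraries -0.15 and 0.30 (0.642 and 0.265).

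COL18A1, the multiplexin whose end releases endostatin, stood at 9.26 in the library labelled DMSO asynchronous replicate 3, against 7.33 to 8.56 in the other 14. It overlaps an antisense gene, and the strand of counting is not stated in the sources. It was called in no comparison with all libraries. Without both atypical libraries it rose in non-released against asynchronous cells, by 0.68 in DMSO and 0.65 under Nutlin (limma adjusted p = 0.013 and 0.00933), and in S-phase against asynchronous cells under Nutlin by 0.56 (0.0265).

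**Figure D5:**
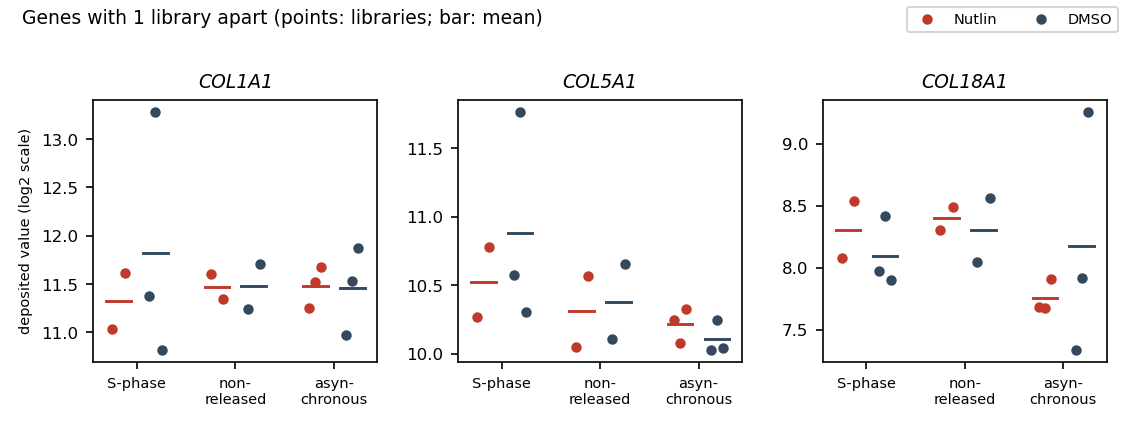
Deposited log2-scale values of COL1A1, COL5A1 and COL18A1 in S-phase, non-released and asynchronous cells, with Nutlin to the left of DMSO. Points are libraries and bars are group means. The point at 13.29 for COL1A1 and at 11.77 for COL5A1 is DMSO S-phase replicate 2, and the point at 9.26 for COL18A1 is DMSO asynchronous replicate 3.

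Genes that modify, fold, trim and crosslink collagen chains were also examined. With all libraries, their share of calls was smaller than that of all genes in S-phase and non-released against asynchronous cells. In the other comparisons between groups 0 were called. Where few of all genes were called, 0 of 37 cannot show a smaller share. Of 37 such genes, all tested, 0 were called by limma for Nutlin against DMSO in any state, and 5, 2 and 6 had an unadjusted p under 0.05 in S-phase, non-released and asynchronous cells, against 12.6%, 6.67% and 12.1% of all genes. In S-phase against asynchronous cells 3 rose and 2 fell under Nutlin (13.5%, against 24.0% of all genes), and 7 rose and 0 fell in DMSO (18.9%, against 27.7%). In non-released against asynchronous cells 3 rose and 5 fell under Nutlin (21.6%, against 34.5%), and 8 rose and 2 fell in DMSO (27%, against 33.9%). Between S-phase and non-released cells 0 were called with either treatment, against 2.43% of all genes under Nutlin and 6.99% in DMSO. At an unadjusted p under 0.05 there was 1 under Nutlin, against 15.8% of all genes. In DMSO there were 6, and the share of all genes was not computed. Without both atypical libraries the split in S-phase against asynchronous cells in DMSO was 3 higher and 4 lower, so the direction of that count depends on them. The other splits against asynchronous cells were then 8 and 4 for S-phase and 7 and 5 for non-released cells under Nutlin, and 10 and 6 for non-released cells in DMSO. Between S-phase and non-released cells 1 was then higher and 0 lower under Nutlin, and 1 higher and 2 lower in DMSO. The share of all genes called without both libraries was not computed, so these splits cannot be set against it.

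LOXL4, a lysyl oxidase-like crosslinking enzyme, had the smallest p of the list in all 4 comparisons with asynchronous cells. It stood at 11.76 and 11.94 in Nutlin S-phase, 11.84 and 11.93 in Nutlin non-released, and 11.05, 11.12 and 11.06 in Nutlin asynchronous cells. The differences were 0.77 ± 0.14 and 0.81 ± 0.14 under Nutlin (limma adjusted p = 0.0015 and 0.000584), and 0.70 ± 0.12 and 0.82 ± 0.14 in DMSO (0.00132 and 0.00057). PCOLCE, which enhances removal of the C-propeptide, rose in DMSO by 0.60 ± 0.13 in S-phase and 0.61 ± 0.14 in non-released cells (limma adjusted p = 0.00438 and 0.00541). PLOD2, a lysyl hydroxylase, was lower in non-released than in asynchronous cells, by -0.44 ± 0.12 under Nutlin and -0.48 ± 0.12 in DMSO (limma adjusted p = 0.0113 and 0.00717). SERPINH1, the collagen chaperone HSP47, was lower in non-released cells under Nutlin (-0.39 ± 0.12, limma adjusted p = 0.0222), and so was the galactosyltransferase GLT25D1 (-0.38 ± 0.09, 0.00451). In DMSO the related GLT25D2 and CRTAP, a partner in proline hydroxylation, were higher in non-released cells (0.59 ± 0.13 and 0.33 ± 0.08, limma adjusted p = 0.00325 and 0.00683). LEPRE1, a prolyl hydroxylase, LOXL3, a crosslinking enzyme, and ADAMTS2, which removes the N-propeptide, were higher in S-phase than in asynchronous cells in DMSO (0.36, 0.40 and 0.60, limma adjusted p = 0.0183, 0.0225 and 0.0308). All 3 calls were lost without both atypical libraries (adjusted p = 0.0846, 0.0543 and 0.153).

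Under Nutlin, TLL2, a procollagen protease, rose in S-phase and non-released against asynchronous cells (0.38 and 0.37, limma adjusted p = 0.0284 and 0.0253). In S-phase against asynchronous cells under Nutlin, P4HA2, a prolyl hydroxylase, rose by 0.37 (0.0303), and LEPREL4 and GLT25D1 had -0.40 and -0.27 (0.0292 and 0.0344).

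Of 8 collagen receptors 6 were tested. Under Nutlin, ITGA2, the collagen-binding integrin subunit, rose in asynchronous cells, at 12.91, 12.31 and 11.81 against 11.84, 10.82 and 10.88 in DMSO cells (1.16 ± 0.27, limma adjusted p = 0.0353), although the groups overlapped. No other receptor was called for Nutlin against DMSO in any state. The share called was thus 16.7% of 6 in asynchronous cells, against 2.45% of all genes. It was 0 in S-phase and non-released cells, against 2.0% and 0.916%. ITGA2 was also higher in DMSO S-phase cells than in DMSO non-released and asynchronous cells, by 1.55 ± 0.30 and 1.19 ± 0.27 (limma adjusted p = 0.00695 and 0.00586). In S-phase against asynchronous cells 1 receptor rose under Nutlin (16.7% of 6, against 24.0% of all genes) and 4 rose in DMSO (66.7%, against 27.7%), and 0 fell. In non-released against asynchronous cells 2 rose and 1 fell under Nutlin (50%, against 34.5%), and 3 rose and 1 fell in DMSO (66.7%, against 33.9%). ITGA1, another integrin subunit for collagen, rose in all 4 of these comparisons, by 0.45 to 0.65. DDR2, a receptor tyrosine kinase for fibrillar collagen, rose in non-released against asynchronous cells by 0.84 ± 0.16 under Nutlin and 0.90 ± 0.16 in DMSO (limma adjusted p = 0.00133 and 0.00081), and in S-phase against asynchronous cells in DMSO by 0.47 ± 0.14 (0.0247). MRC2, which takes up collagen fragments, rose in DMSO S-phase and non-released cells by 0.82 ± 0.18 and 0.67 ± 0.20 (limma adjusted p = 0.00534 and 0.0217). ITGB1, the shared beta subunit, was lower in non-released than in asynchronous cells, by -0.42 ± 0.09 under Nutlin and -0.32 ± 0.09 in DMSO (limma adjusted p = 0.00413 and 0.0184).

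Of 8 collagen-degrading enzymes 6 were tested. MMP14, a membrane-bound collagenase, stood at 11.00, 11.00 and 10.73 in Nutlin asynchronous cells, against 10.45, 10.23 and 9.88 in DMSO asynchronous cells (0.72 ± 0.14, limma adjusted p = 0.0133). No other degrading enzyme was called for Nutlin against DMSO in any state. The share called was 16.7% of 6 in asynchronous cells, against 2.45% of all genes, and 0 in S-phase and non-released cells, against 2.0% and 0.916%. MMP14 was also higher in S-phase and non-released than in asynchronous cells, by 0.72 ± 0.16 and 0.72 ± 0.16 under Nutlin and by 1.00 ± 0.14 and 1.13 ± 0.16 in DMSO (limma adjusted p = 0.00555, 0.00365, 0.000346 and 0.000177). MMP9, a gelatinase, was lower in non-released than in asynchronous cells, by -1.27 ± 0.23 under Nutlin and -0.84 ± 0.23 in DMSO (limma adjusted p = 0.0011 and 0.0135). In S-phase against asynchronous cells 2 enzymes rose under Nutlin (33.3% of 6, against 24.0% of all genes) and 1 rose in DMSO (16.7%, against 27.7%), and 0 fell. In non-released against asynchronous cells 1 rose and 1 fell with either treatment (33.3%, against 34.5% under Nutlin and 33.9% in DMSO). MMP13, a collagenase, was higher in S-phase than in asynchronous cells under Nutlin (0.71 ± 0.24, limma adjusted p = 0.0488).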

How the data were processed

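RNA was sequenced as single reads of 50 nt from TruSeq libraries, per the labels' protocols. The values were deposited by the authors as variance-stabilised log2 values, 1 table of 23368 genes by 15 libraries. Per the submitters' processing notes, the human build was hg19 and the tools were HTSeq, TopHat 0.9, DESeq2 1.10.1 and CASAVA 1.8.2, with no roles stated. Annotation and strand are not stated in the sources. The scale compresses differences at low reads.

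Reads were recovered by inverting the transformation from the lowest value, 4.859; at least 99.04% of values per library lay within 0.05 of a whole read after 1 factor per library. Levels per kb used GENCODE v29 transcript lengths.

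Differences were tested with limma 3.58.1 (R 4.3.3), 1 mean per group over 15 libraries, eBayes with trend (prior degrees of freedom 4.66), two-sided, adjusted by Benjamini and Hochberg in each of 12 comparisons over 14298 genes, those that exceeded the lowest value by 1 unit in at least 2 libraries. An adjusted p under 0.05 counted as a call.

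Members and lists were chosen with earlier results of these data known. Named genes are every collagen gene called, the highest of each class, the 3 nearest either side of the filter, and up to 5 called genes per list and comparison, by p. Some genes named without a call were chosen after their values were seen. Promoter sequences are from RefSeq (GRCh38.p14).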

Additional observations from a re-analysis of the deposited data

How the results depend on the processing

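All alternatives were planned: the compared groups only, voom on recovered reads, median scaling, no filter, a stricter filter, a replicate block, leaving out each library, and leaving out both atypical libraries. The atypical libraries were set apart by values of these same data, collagen reads among them. None of the 49 called gene differences reversed. Calls lost numbered 13 of 49 with the compared groups only, 5 of 49 with median scaling, 11 of 49 with no filter, 2 of 49 with voom, 3 of 49 without both libraries, 0 of 47 with the stricter filter and 87 of 318 on leaving out 1 library. The calls of COL11A1 and COL4A4 in the 4 comparisons with asynchronous cells were kept under every alternative. That of COL17A1 under Nutlin was kept in 11 of 13 in S-phase cells (adjusted p 0.00337 to 0.08) and in 8 of 14 in asynchronous cells (0.0155 to 0.184).

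Counts of collagen genes called that moved by more than 1.5 times were as follows, and the cause was not tested. With the compared groups only, which have fewer libraries to set the spread, Nutlin against DMSO gave 0 in S-phase and 3 in non-released cells (1 and 0 with all groups), S-phase against asynchronous cells gave 14 under Nutlin and 4 in DMSO (9 and 9), and S-phase against non-released cells gave 3 under Nutlin and 1 in DMSO (0 and 5). Voom gave 1 under Nutlin in non-released cells, and no filter 0 under Nutlin in asynchronous cells. S-phase against non-released cells under Nutlin gave 1 with median scaling and 1 with the stricter filter. Without both atypical libraries, Nutlin gave 2 in non-released and 3 in asynchronous cells, S-phase against asynchronous cells under Nutlin gave 14, and S-phase against non-released cells gave 6 under Nutlin and 8 in DMSO. Leaving out 1 library gave 0 to 2, 0 to 1 and 0 to 3 under Nutlin in S-phase, non-released and asynchronous cells. Under Nutlin it gave 5 to 12 for S-phase and 6 to 16 for non-released against asynchronous cells, and 0 to 2 for S-phase against non-released cells, and in DMSO 6 to 10, 5 to 10 and 1 to 7. The differences between Nutlin responses gave 0 throughout. Shares of all genes called under these alternatives were not computed.

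The labels do not say what the replicate numbers share, and the numbers were not taken as a pairing, since 1 of the 3 asynchronous pairs correlated at under 0.1. That pair is replicate 3, whose DMSO library is atypical, so its low correlation says little about pairing. Deviations of same-numbered libraries from their group means correlated at 0.31, 0.14 and 0.07 in asynchronous, 0.32 and 0.32 in non-released, and 0.34 and 0.35 in S-phase cells, all above 0. In a group of 2 libraries the deviations mirror each other. The non-released values are therefore equal by construction, and the S-phase values are not independent. Of the asynchronous libraries, 4 of 6 correlated best with their own number. With the replicate block, Nutlin against DMSO gave 2 in asynchronous cells and S-phase against non-released cells under Nutlin gave 3, and 1 of 49 gene calls was lost.

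Depth limits the 16 genes not tested and COL19A1, COL9A3, COL8A2 and COL15A1, whose means lay between 1.98 and 4.50 normalised reads per kb.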
